A study of Arabidopsis thaliana with 48 samples.

Results

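The transcript levels of Arabidopsis thaliana leaves at day 0.375 were compared with those at day 0.25, a pair of neighbouring times of a diurnal series. The members are the 4 libraries of these times, sequenced as 8 of the 48 lane samples of the series, with 2 replicates at day 0.375 and 2 at day 0.25. Both groups were plants of the ecotype Columbia, grown for 6 weeks in controlled environment rooms, the last 2 of them under shade cloth that gave 250 µmol photons per square metre and second, with a 10 h photoperiod, days at 23°C and nights at 5°C. Each replicate was a random pool of RNA extracted separately from whole rosettes, so that plants within a pool cannot be told apart. The labels give 4 to 6 rosettes a time over the experiments of the series, with the light-level experiment named beside the 6. The labels give the times as fractions of a day and not the hour at which the lights came on, so the times are used here as names. The other 4 times of the series (days 0.083, 0.625, 0.75 and 0.916, 2 replicates each) shared the estimate of the spread between replicates and place each gene in the daily course.

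The plant circadian clock is a network of transcription factors that repress or activate each other in turn. The related MYB factors CCA1 and LHY peak around dawn, the pseudo-response regulators PRR9, PRR7, PRR5 and TOC1 follow each other through the day, and the evening complex of ELF3, ELF4 and LUX acts around dusk. Light, temperature and sugars all act on this network and on the genes of photosynthesis, starch turnover, cold and heat responses that it times. In a leaf that passes from a cold night into a warm lit day these inputs change together, and in this design time of day, light and temperature cannot be told apart.

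Each library held between 28890829 and 32662539 counts, and between 22366 and 22698 of the 33602 loci had at least 1 count. Levels are in CPM (each count as a share of its library, scaled up alike in all) after normalisation by the trimmed mean of M values (TMM), and paired values are replicates 1 and 2. At this depth 3 counts, the limit that a count of 0 allows, correspond to 0.0943 to 0.110 CPM, which covers counting error only. Markers of the labelled tissue were abundant, and the 6 leaf markers summed to 37050 and 30420 CPM at day 0.375, against 33820 and 30170 CPM at day 0.25. The 4 root markers summed to 1.44 and 2.23 CPM at day 0.375, against 3.63 and 2.64 CPM at day 0.25, with EXPA7 at 0 in all 4 libraries. The 5 floral markers summed to 1.9 and 1.6 CPM at day 0.375, against 2.51 and 1.46 CPM at day 0.25. Of the 5 seed markers CRU3, OLEO1, OLEO2 and SESA3 were at 0 in all 4 libraries, and the list summed to no more than 0.066 CPM in any of them. In RNA of whole leaves, fewer cells that express a gene and less RNA per cell cannot be told apart.

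Leaves at day 0.375 differed from those at day 0.25 in a large share of the transcriptome. Among loci with a mean log2 CPM of at least 3 whose replicates did not overlap between the times, the heat stress factor HSFA2 and the clock repressor PRR9 rose the most, while the cold factor CBF2 and the MYB factors RVE2 and RVE1 fell the most. Below that level are loci with larger falls, down to -6.45 on the log2 scale. Of 20958 loci tested with edgeR's quasi-likelihood F test, 3891 passed an adjusted p of 0.05 (18.6%). Of these 1767 were higher at day 0.375 (8.43% of the loci tested) and 2124 were lower (10.1%). At least a doubling was estimated for 512 of the higher loci and at least a halving for 594 of the lower ones. Under scaling by total counts in place of TMM the split was 2301 higher and 1462 lower, the median over all loci then lying at 0.07 on the log2 scale in place of -0.01. Leaving out 1 library lowered the count, to 1967 and 2178 without replicate 1 or replicate 2 of day 0.375, and to 2472 and 1761 without replicate 1 or replicate 2 of day 0.25.

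Among the 10 largest rises with a mean log2 CPM of at least 3, HSFA2, which encodes a transcription factor of the heat response, had 54.7 and 52.6 CPM at day 0.375, against 0.396 and 0.366 CPM at day 0.25. It was nearly silent in both replicates of day 0.25, with 12 and 10 counts, and the log2 change was 7.12 ± 0.85 (SE; adjusted p = 0.00034). AT3G53830, annotated as a member of the family of regulators of chromosome condensation, had 29.1 and 28.5 CPM at day 0.375, against 2.37 and 1.98 CPM at day 0.25. AT2G34620, annotated as a mitochondrial transcription termination factor family member, had 25.1 and 16.8 CPM at day 0.375, against 3.30 and 2.12 CPM at day 0.25. In both genes the replicates of the times lay far apart, with log2 changes of 3.72 ± 0.15 (adjusted p = 2.6e-07) and 2.94 ± 0.48 (adjusted p = 0.002). HAI1, a clade A protein phosphatase that acts in abscisic acid signalling, had 56.4 and 66.0 CPM at day 0.375, against 12.2 and 9.55 CPM at day 0.25. The transcription factor bHLH093 had 9.59 and 12.9 CPM at day 0.375, against 2.47 and 1.57 CPM at day 0.25. AT1G51400, annotated as a photosystem II 5 kD protein, had 46.8 and 28.1 CPM at day 0.375, against 8.64 and 6.00 CPM at day 0.25. All 3 were higher in both replicates of day 0.375, by 5.62-fold, 5.51-fold and 5.09-fold, and AT1G51400 overlaps genes on the opposite strand. The other members of the 10, PRR9, LHCB2.2, AT2G20560 and HSFB2B, are described with their groups.

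Of the 10 largest falls above the same mean level, 7 are described with the clock and cold genes below. Of the other 3, COL9, a CONSTANS-like B-box protein, had 2.15 and 1.76 CPM at day 0.375, against 26.9 and 23.61 CPM at day 0.25. AT4G33980, an uncharacterised protein, had 0.718 and 0.346 CPM at day 0.375, against 6.40 and 7.43 CPM at day 0.25. AT3G60930 had 1.58 and 0.880 CPM at day 0.375, against 16.4 and 13.9 CPM at day 0.25, but 95.6% of its aligned bases over 2187 are identical in AT4G06603, so its counts are uncertain. COL9 and AT4G33980 were lower in both replicates of day 0.375 and lowest at that time among the 6 sampled, with log2 changes of -3.69 ± 0.13 (adjusted p = 9.07e-08) and -3.72 ± 0.33 (adjusted p = 5.31e-05).

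**Figure D1:**
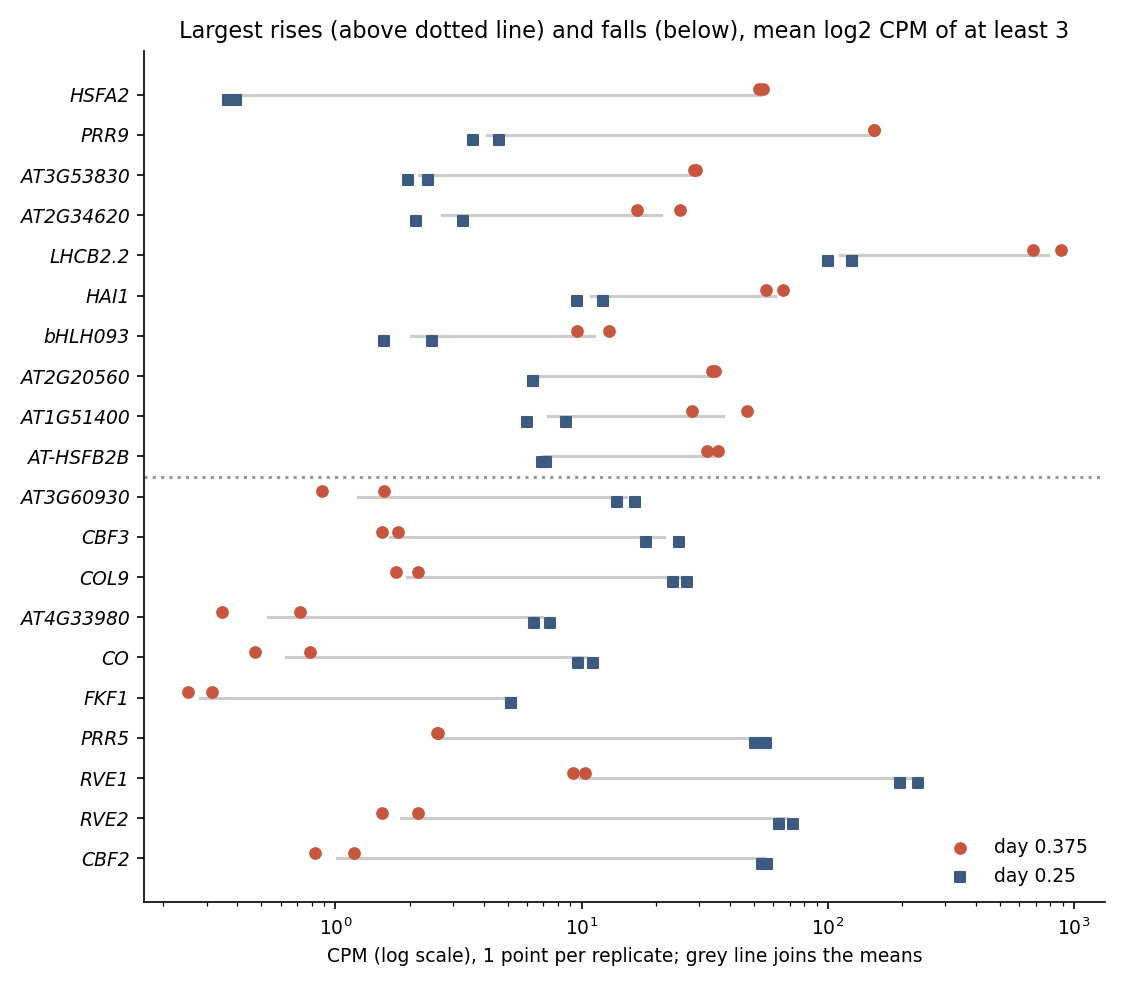
CPM (log axis) of the 10 largest rises and 10 largest falls among loci with a mean log2 CPM of at least 3, 1 point per replicate, circles for day 0.375 and squares for day 0.25, with a grey line between the means. In each gene the pair of circles lies clear of the pair of squares, from HSFA2 (54.7 and 52.6 against 0.396 and 0.366 CPM) to CBF2 (0.826 and 1.19 against 56.4 and 54.0 CPM); AT-HSFB2B is the annotation's symbol for HSFB2B.

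The genes of the daytime and evening arms of the clock moved both ways. PRR9, PRR7 and GI rose, while PRR5, TOC1, FKF1, BOA and ELF3 fell, and the other 6 of the 14 members did not pass the test. The median log2 change of the list was -0.16, against -0.01 over all loci tested, and 8 of 14 members were called against 18.6% of all loci. PRR9, the repressor that opens the pseudo-response regulator sequence, had 154 and 155 CPM at day 0.375, against 3.63 and 4.61 CPM at day 0.25. Its level was highest at day 0.375 among the 6 times, and the log2 change was 5.23 ± 0.21 (adjusted p = 2.55e-07). A stretch of 440 bases is 99.3% identical in AT2G46670, so the split of reads between this pair is uncertain. PRR7, the next of the sequence, had 119 and 120.5 CPM at day 0.375, against 55.5 and 61.8 CPM at day 0.25, a 2.04-fold rise. GI, a scaffold protein that joins the clock to photoperiodic flowering, had 95.1 and 97.5 CPM at day 0.375, against 20.6 and 22.7 CPM at day 0.25, a 4.45-fold rise.

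The falls in this arm were larger than the rises of PRR7 and GI for 3 of the 5 genes. PRR5 had 2.59 and 2.61 CPM at day 0.375, against 50.6 and 56.2 CPM at day 0.25, and FKF1, a blue-light receptor F-box protein, had 0.251 and 0.314 CPM at day 0.375, against 5.18 and 5.16 CPM at day 0.25. Neither gene's replicates overlapped between the times, and the log2 changes were -4.36 ± 0.23 (adjusted p = 2.55e-06) and -4.16 ± 0.50 (adjusted p = 0.000339). TOC1, a repressor of morning genes that is best known from the evening, had 24.1 and 26.8 CPM at day 0.375, against 106 and 117 CPM at day 0.25, and BOA, a homologue of the evening complex protein LUX, had 0.323 and 0.440 CPM at day 0.375, against 2.21 and 1.98 CPM at day 0.25. ELF3, a scaffold of the evening complex, had 17.5 and 16.9 CPM at day 0.375, against 26.4 and 25.7 CPM at day 0.25, the smallest of the 5 falls with a log2 change of -0.60 ± 0.0822 (adjusted p = 0.000745). All 5 genes were at their lowest of the 6 times at day 0.375. Of the partners of ELF3, ELF4 had 1.58 and 1.86 CPM at day 0.375, against 2.34 and 3.22 CPM at day 0.25 (adjusted p = 0.136) and LUX had 1.33 and 1.79 CPM at day 0.375, against 1.68 and 1.61 CPM at day 0.25 (adjusted p = 0.875), with LUX replicates that overlapped. PRR3 (0.39), ZTL (-0.01), LKP2 (-0.26) and CHE (0.12), given as log2 changes, did not pass either. The sign of the LUX and ZTL values turned under total-count scaling, and ELF4 passed in part of the alternative settings. FKF1, BOA, ELF3, LUX and LKP2 overlap a neighbouring gene, and without a stated use of strand their reads cannot be told apart from that gene's.

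Several of these genes carry the evening element in the 250 bases before the annotated gene start, a motif of the letters AAAATATCT that clock MYB factors are known to bind. It is shown here in the 4 clock genes with falls that hold it (PRR5, TOC1, FKF1 and BOA), in GRP7, a clock output gene that fell, and in LUX, which holds it and did not pass the test. The windows of 60 bases come from the RefSeq assembly TAIR10.1 and are read 5′ to 3′ on the strand of the gene, with each copy of the motif, on either strand, in capitals. The windows are chr5:8358700-8358759 (minus strand) for PRR5, chr5:24674786-24674845 (plus) for TOC1, chr1:25508427-25508486 (plus) for FKF1, chr5:24003819-24003878 (plus) for BOA, chr2:9266558-9266617 (minus) for GRP7 and chr3:17182963-17183022 (plus) for LUX.
PRR5: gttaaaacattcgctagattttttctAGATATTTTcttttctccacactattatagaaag
TOC1: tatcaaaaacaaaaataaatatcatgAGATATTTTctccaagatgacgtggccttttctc
FKF1: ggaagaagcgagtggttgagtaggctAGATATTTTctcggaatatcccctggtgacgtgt
BOA: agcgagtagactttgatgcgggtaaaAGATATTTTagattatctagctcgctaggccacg
GRP7: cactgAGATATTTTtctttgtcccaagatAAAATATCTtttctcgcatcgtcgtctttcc
LUX: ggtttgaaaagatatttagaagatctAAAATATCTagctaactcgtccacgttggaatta
In PRR5, TOC1, FKF1 and BOA the motif stands in the reverse orientation, and in LUX in the forward one. GRP7 holds 3 copies in its 250 bases, of which 2 fall in the window shown.

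Searched on both strands, the evening element was found before 534 of 20752 tested loci with such a stretch (2.57%). It was found before 44 of 1761 loci called higher (2.5%) and 94 of 2115 called lower (4.44%). Among loci with at least a halving, 30 of 592 held it (5.07%), and these divide by when the gene was lowest. Of the 256 that were lowest at day 0.375 among the 6 times 23 held it (8.98%), and of the 336 lowest at another time 7 held it (2.08%). The split by time was chosen after the values were seen, and the shares are a description of the windows searched. The related CCA1-binding site, AAAAATCT, was found before 6.69% of all loci, 7.67% of those higher and 6.71% of those lower. By the same split of the halved loci it was found before 7.81% of those lowest at day 0.375 and 5.06% of the others. For the other motifs searched, described below, the split ran the other way. The G-box was at 5.08% and 9.23%, and the heat shock element at 10.9% and 12.5%.

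The MYB and LNK genes of the morning arm also moved both ways, with 4 of 14 members higher and 4 lower. Of the list 57.1% was called, against 18.6% of all loci, and the median log2 change was 0.04. RVE2 had 2.15 and 1.54 CPM at day 0.375, against 72.1 and 63.6 CPM at day 0.25, and RVE1, which links the clock to auxin, had 9.19 and 10.3 CPM at day 0.375, against 233 and 197 CPM at day 0.25. Both, relatives of CCA1, were lower in each replicate of day 0.375, by 36.9-fold and 22.03-fold. CCA1 had 464 and 475 CPM at day 0.375, against 892 and 923 CPM at day 0.25, a log2 change of -0.95 ± 0.18 (adjusted p = 0.00455). LHY had 492 and 501 CPM at day 0.375, against 601 and 625 CPM at day 0.25. The difference did not pass the test at -0.30 ± 0.10 (adjusted p = 0.0613). It did pass with DESeq2 (adjusted p = 0.0368), which was not the only alternative setting in which it passed. CCA1 and LHY both had their highest mean of the 6 times at day 0.25. RVE4, a MYB factor of the activating branch, had 91.8 and 92.6 CPM at day 0.375, against 142 and 148 CPM at day 0.25, a 1.57-fold fall.

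The rises in the morning arm were led by LNK1, a coactivator that works with RVE8, which had 210.1 and 220.1 CPM at day 0.375, against 47.3 and 50.3 CPM at day 0.25. RVE8, an activator of evening genes, had 104 and 107 CPM at day 0.375, against 63.2 and 65.6 CPM at day 0.25, with its highest mean of the 6 times at day 0.375. LNK1 was 4.41-fold and RVE8 1.64-fold higher, and their replicates did not overlap between the times. RVE7 had 11.9 and 9.75 CPM at day 0.375, against 6.07 and 5.97 CPM at day 0.25, but 99.8% of 615 bases are identical in AT3G10113 and its counts are uncertain. ASG4 had 57.5 and 57.5 CPM at day 0.375, against 35.98 and 32.7 CPM at day 0.25 and a log2 change of 0.74 ± 0.23 (adjusted p = 0.0466). The ASG4 call was lost when any library of these times was left out. The RVE8 call was lost without replicate 2 of day 0.375 or either replicate of day 0.25. The RVE7 call was lost without replicate 1 of day 0.375 or either replicate of day 0.25. Without 1 library the higher members numbered between 1 and 2. LNK2 (0.15), LNK3 (-0.32), LNK4 (0.11), AT4G01280 (0.14) and AT5G52660 (-0.02) did not pass, again as log2 changes. RVE1, ASG4, AT4G01280 and the 4 LNK genes overlap a neighbouring gene.

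The output genes of the clock fell together. Of the 11 members 10 were tested, 9 were lower and none higher (90% called, against 18.6% of all loci). The median log2 change was -1.66. CDF1, a DOF repressor of flowering genes, had 23.5 and 26.6 CPM at day 0.375, against 117 and 118 CPM at day 0.25. Its relative CDF2 had 7.83 and 9.24 CPM at day 0.375, against 85.3 and 75.8 CPM at day 0.25. The replicates of the times lay 4.68-fold and 9.42-fold apart in the fit. AT1G69570, another Dof-type gene, had 11.3 and 13.1 CPM at day 0.375, against 41.6 and 46.9 CPM at day 0.25, and CO, the activator of the flowering signal that the CDF proteins repress, had 0.790 and 0.472 CPM at day 0.375, against 9.70 and 11.1 CPM at day 0.25. CO showed the largest fall of the list at -4.05 ± 0.26 (adjusted p = 6.43e-06), with a stretch of 121 bases 90.08% identical in AT2G25990. GRP7, an RNA-binding protein that feeds back on its own splicing, had 665 and 582 CPM at day 0.375, against 1786 and 2102 CPM at day 0.25, the highest level of the list and its lowest of the 6 times at day 0.375. GRP8, COL1, COL2 and CDF3 fell too, with log2 changes of -1.09, -1.12, -1.68 and -0.71. AT2G34140 was the tested member that did not pass, and the flowering signal gene FT itself did not pass the filter on low counts.

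**Figure D2:**
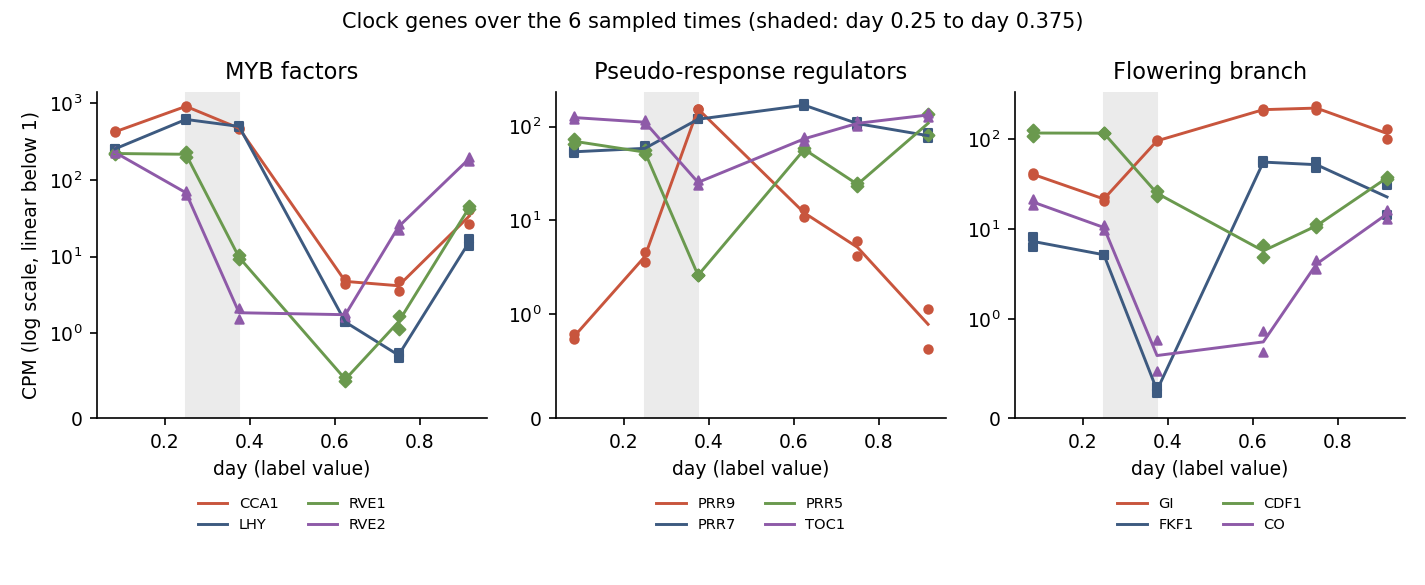
CPM (log axis, linear below 1) of 12 clock genes against the labelled day, points for the 2 replicates, lines through the means, day 0.25 to day 0.375 shaded. Within the shaded step PRR9 and GI rise while RVE1, RVE2, PRR5, FKF1 and CO drop steeply, and CCA1 and LHY are still abundant at day 0.375 (464 and 475 CPM, and 492 and 501 CPM).

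Of the 22 genes of the heat response 19 were tested, 9 were higher at day 0.375 (47.4%, against 18.6% of all loci called), 10 did not pass and none was lower, and the median log2 change was 1.23. Besides HSFA2, MBF1C, a transcriptional coactivator of thermotolerance, had 24.7 and 22.7 CPM at day 0.375, against 2.01 and 0.879 CPM at day 0.25. HSP70, a cytosolic chaperone, had 106 and 104 CPM at day 0.375, against 30.0 and 25.2 CPM at day 0.25, and HSP90.1, its partner chaperone, had 37.1 and 38.2 CPM at day 0.375, against 13.6 and 9.77 CPM at day 0.25. These 3 were higher in both replicates, by log2 changes of 4.02 ± 0.40, 1.93 ± 0.42 and 1.69 ± 0.39 (adjusted p = 0.000107, 0.00964 and 0.0127). HSP101, the disaggregase of acquired thermotolerance, had 21.98 and 19.5 CPM at day 0.375, against 9.86 and 7.76 CPM at day 0.25. ROF2, a peptidyl-prolyl isomerase that binds heat factors, had 12.9 and 13.8 CPM at day 0.375, against 3.99 and 3.92 CPM at day 0.25. Both were highest at day 0.375 among the 6 times. The small heat shock genes were scarce: HSP17.6 had 1.19 and 2.04 CPM at day 0.375, against 0.231 and 0 CPM at day 0.25, and AT1G07400 had 2.80 and 2.80 CPM at day 0.375, against 0.198 and 0.366 CPM at day 0.25. The HSP17.6 call was lost when any library of these times was left out.

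Outside that list, HSFB2B, a heat stress factor of the repressing class, had 35.8 and 32.4 CPM at day 0.375, against 6.93 and 7.14 CPM at day 0.25, and AT2G20560, a DNAJ cochaperone, had 34.8 and 33.9 CPM at day 0.375, against 6.37 and 6.33 CPM at day 0.25. They were 4.85-fold and 5.40-fold higher, both highest at day 0.375. ROF1, the member with the highest mean, had 124 and 120.1 CPM at day 0.375, against 107 and 99.1 CPM at day 0.25 and did not pass (adjusted p = 0.253). HSP18.2 (0.17), HSP17.6A (-0.03) and DREB2A (-0.53) did not pass either, as log2 changes. The values of the tested list ran down to -1.57, and 2 members were lower in both replicates of day 0.375 without passing. With 1 library left out the higher members numbered from 4, without replicate 2 of day 0.25, to 6, without replicate 1 of day 0.25, and 5 without replicate 1 or replicate 2 of day 0.375. MBF1C, HSFB2B and AT2G20560 overlap a neighbouring gene, and AT2G20560 and AT1G07400 have a similar copy.

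The 250 bases before HSFA2 hold the letters GAANNTTC, the core of heat shock elements, 2 times. The match nearest the gene is shown because HSFA2 had the largest rise, in the window chr2:11135564-11135623 (plus strand, TAIR10.1), with its letters in capitals.
HSFA2: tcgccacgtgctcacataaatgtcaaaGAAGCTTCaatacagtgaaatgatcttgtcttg
These letters were found before 9.45% of all tested loci and before 7.66% of those with at least a doubling. The G-box, CACGTG, was found before 7.3% of all tested loci and 9.43% of those with at least a doubling.

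Of 19 genes of the cold response, all tested, 9 were lower and 1 higher (52.6% called, against 18.6% of all loci). The median log2 change was -0.56. The members that fell were both factors, such as the CBF genes, and effector genes, such as ERD10. Under total-count scaling 3 were higher and 8 lower, and with DESeq2 3 were higher and 11 lower. CBF2, a DREB-type activator of cold-regulated genes, had 0.826 and 1.19 CPM at day 0.375, against 56.4 and 54.0 CPM at day 0.25. CBF1 had 0 and 0.220 CPM at day 0.375, against 4.82 and 5.67 CPM at day 0.25, and CBF3 had 1.54 and 1.79 CPM at day 0.375, against 18.3 and 24.9 CPM at day 0.25. For each of the CBF genes day 0.375 was the lowest of the 6 times, and the log2 changes were -5.75 ± 0.28, -5.44 ± 0.52 and -3.69 ± 0.33 (adjusted p = 1.23e-06, 8e-05 and 5.84e-05). The CBF1 value rests on 0 and 7 counts at day 0.375. It was -4.55 without replicate 1 of that time, and -10.36 without replicate 2, a fitted value against a lone library at 0 that depends on the prior count. CBF2 and CBF3 are 86.0% identical over 813 bases, so reads may be shared between them, and CBF3 overlaps a gene on the opposite strand. RAV1, an AP2/B3 factor, had 17.2 and 20.7 CPM at day 0.375, against 139.9 and 161 CPM at day 0.25, and ZAT12, a zinc finger repressor, had 5.24 and 5.63 CPM at day 0.375, against 19.7 and 26.4 CPM at day 0.25. Both were lower in each replicate, with log2 changes of -2.99 and -2.08.

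ZAT10, CAMTA3, GOLS3 and ERD10 were the other members that fell, with log2 changes of -1.34, -0.70, -0.97 and -0.82. COR15A, a chloroplast protein that protects membranes in the cold, was the most abundant member, with 6493 and 5922 CPM at day 0.375, against 4722 and 4954 CPM at day 0.25. It was above day 0.25 in both replicates and did not pass the test, at 0.36 ± 0.12 (adjusted p = 0.0629), though it did under total-count scaling (adjusted p = 0.0202), without day 0.916 (0.0246), with the needed groups alone (0.0474) and with DESeq2 (0.000841). COR15B had 1518 and 1339 CPM at day 0.375, against 1320.1 and 1356 CPM at day 0.25, and KIN2 had 2498 and 2494 CPM at day 0.375, against 2299.6 and 2359.7 CPM at day 0.25. Neither passed, and the COR15B replicates overlapped. KIN1 rose, with 554 and 599 CPM at day 0.375, against 384 and 377 CPM at day 0.25 (log2 change 0.60 ± 0.14, adjusted p = 0.0154), but it did not pass when any of the 4 libraries was left out. The cold genes called lower numbered 5 without replicate 1 of day 0.375 and 5 without replicate 2 of day 0.25.

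The letters CGCGTT, known as the rapid stress response element, stand before CBF2 in the window chr4:13016277-13016336 (minus strand, TAIR10.1), shown because CBF2 had the largest fall among loci with a mean log2 CPM of at least 3.
CBF2: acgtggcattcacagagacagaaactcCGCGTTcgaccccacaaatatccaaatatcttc
They were found before 2.86% of all tested loci, 4.78% of those lower, 6.42% of those with at least a halving and 2.16% of those higher. Of loci with at least a halving, 3.91% of those lowest at day 0.375, like CBF2, held them, against 8.33% of the others. The core CCGAC, which CBF proteins bind, was found before 12.9% of all tested loci, 12.2% of those higher and 13.0% of those lower. Of the halved loci, 8.98% of those lowest at day 0.375 held this core, against 16.4% of the others.

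**Figure D3:**
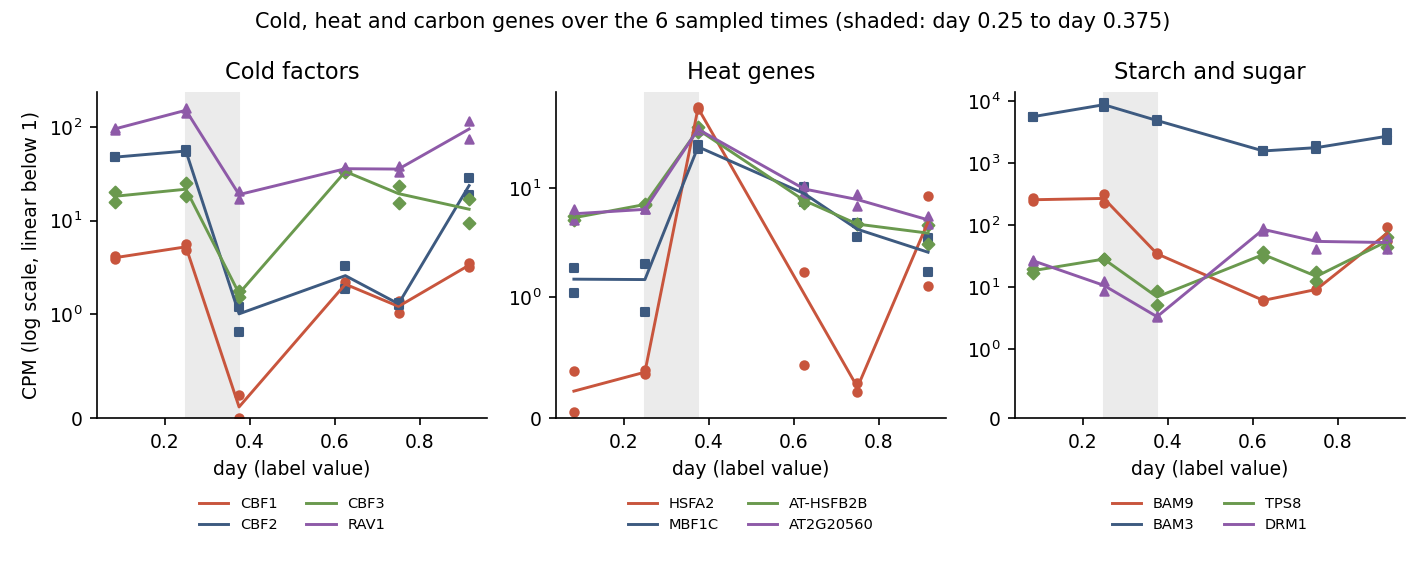
CPM (log axis, linear below 1) of cold factors, heat genes and genes of starch and sugar against the labelled day, points for the 2 replicates, lines through the means, day 0.25 to day 0.375 shaded. The 4 cold factors drop and the 4 heat genes climb to their highest mean within the shaded step, while BAM9, BAM3, TPS8 and DRM1 fall.

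Light signalling genes moved both ways, with 9 of 33 members higher and 8 lower (51.5% called, against 18.6% of all loci). The median log2 change was 0.03. HY5, a bZIP factor of light signalling, had 43.3 and 36.1 CPM at day 0.375, against 13.0 and 13.4 CPM at day 0.25. PIF4, a bHLH factor that promotes elongation, had 17.1 and 19.2 CPM at day 0.375, against 6.27 and 5.67 CPM at day 0.25. Their replicates did not overlap, and both were about 3 times as high, with fitted folds of 3.01 and 3.04. PIF5 had 119.6 and 123 CPM at day 0.375, against 69.3 and 68.5 CPM at day 0.25, and the photoreceptor gene PHYB had 166 and 211 CPM at day 0.375, against 99.0 and 96.0 CPM at day 0.25. The cryptochrome gene CRY1 had 93.7 and 102 CPM at day 0.375, against 158 and 148 CPM at day 0.25, and the second cryptochrome gene, CRY2, had 93.1 and 111 CPM at day 0.375, against 166 and 169.7 CPM at day 0.25. PHYB rose, with a log2 change of 0.95, while CRY1 and CRY2 fell, with log2 changes of -0.64 and -0.72.

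The B-box zinc finger genes accounted for 5 of the 9 rises and 4 of the 8 falls of this list. BBX16 had 135 and 133 CPM at day 0.375, against 53.2 and 43.5 CPM at day 0.25, and BBX14 had 10.4 and 11.6 CPM at day 0.375, against 65.3 and 42.1 CPM at day 0.25. BBX25, a negative regulator of light responses, had 133 and 132 CPM at day 0.375, against 574 and 492 CPM at day 0.25. BBX16 was higher by 1.47 on the log2 scale, while BBX14 was 4.87-fold and BBX25 4.03-fold lower. BBX15, BBX21, BBX22 and BBX32 rose, with log2 changes from 0.47 to 1.29, and BBX18 and BBX19 fell, with -0.62 and -0.76. HYH, the homologue of HY5, and SPA4, a partner of the ligase COP1, also fell, with log2 changes of -0.57 and -0.54. PHOT2, the most abundant member, had 497 and 511 CPM at day 0.375, against 456 and 473 CPM at day 0.25 and did not pass (adjusted p = 0.425). BBX14, BBX25 and PHOT2 overlap a neighbouring gene, and a short stretch of BBX14 has a similar copy.

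Of the 8 genes known as targets of PIF factors, 3 were higher and none lower (37.5% called, against 18.6% of all loci). The median log2 change was 0.58. ATHB2, a homeobox factor of the shade response, had 50.7 and 59.0 CPM at day 0.375, against 14.97 and 15.9 CPM at day 0.25. PIL1 had 42.1 and 53.7 CPM at day 0.375, against 26.3 and 26.1 CPM at day 0.25, and IAA29, an auxin response repressor, had 2.23 and 1.76 CPM at day 0.375, against 0.825 and 0.915 CPM at day 0.25. Each was higher in both replicates of day 0.375, with log2 changes of 1.83 ± 0.14, 0.87 ± 0.17 and 1.19 ± 0.31 (adjusted p = 1.78e-05, 0.00469 and 0.021). The IAA29 call was lost without replicate 1 of day 0.375 or either replicate of day 0.25 (adjusted p up to 0.124). The auxin gene IAA19 (-0.27) and CKX5 (-0.28) did not pass the test.

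Genes of the light-harvesting antenna rose in part. Of 21 members 5 were higher and none lower (23.8% called, near the 18.6% of all loci), with a median log2 change of 0.51. LHCB2.2, a subunit of the mobile antenna of photosystem II, had 886 and 681 CPM at day 0.375, against 125 and 99.9 CPM at day 0.25, and LHCB4.2, a minor antenna subunit, had 541 and 415 CPM at day 0.375, against 120.1 and 96.0 CPM at day 0.25. LHCB2.1 had 2212 and 1803 CPM at day 0.375, against 974 and 841 CPM at day 0.25, and LHCB2.3 had 266 and 173 CPM at day 0.375, against 55.8 and 64.3 CPM at day 0.25. LHCB2.2 and LHCB4.2 were 6.96-fold and 4.43-fold higher, LHCB2.3 3.65-fold and LHCB2.1 2.21-fold. The LHCB2.1 call was lost when any library of these times was left out. LHCB2.1 and LHCB2.2 are 94.4% identical over 1032 bases, so the division of reads among the LHCB2 genes is uncertain. LHCB7 rose by 0.51. LHCB1.3, the most abundant member, had 5533 and 4478 CPM at day 0.375, against 4503 and 3759.9 CPM at day 0.25, with replicates that overlapped (adjusted p = 0.626). It is 96.1% identical over 836 bases to LHCB1.2, so its level is uncertain too. LHCB1.3, LHCB2.3 and LHCB4.2 overlap a neighbouring gene. The higher members numbered 10 without day 0.916, whose replicates lay furthest apart of the 6 times, 8 under total-count scaling, and 2 to 4 without 1 library.

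Of 25 genes of chlorophyll synthesis 5 were higher and 1 lower (24% called, near the 18.6% of all loci), with a median log2 change of 0.02. GUN4, which binds the precursor at the magnesium chelatase step, had 197 and 158 CPM at day 0.375, against 89.3 and 59.9 CPM at day 0.25. CRD1, a cyclase subunit, had 1232 and 1054 CPM at day 0.375, against 631 and 551 CPM at day 0.25, and AT1G74470, annotated as a pyridine nucleotide-disulfide oxidoreductase, had 798 and 651 CPM at day 0.375, against 443 and 413 CPM at day 0.25. The log2 changes were 1.25 ± 0.29, 0.95 ± 0.23 and 0.76 ± 0.18 (adjusted p = 0.0121, 0.0146 and 0.016). CAO, which makes chlorophyll b, rose with a log2 change of 0.51, and HEMA2 fell with -0.66. PORA was called higher on 11 and 14 counts at day 0.375, against 2 and 2 counts at day 0.25. CHLH, the most abundant member, had 1969 and 1794 CPM at day 0.375, against 1319 and 1268 CPM at day 0.25 and did not pass (adjusted p = 0.153). In part of the alternative settings CHLH passed. No member was higher past the threshold without replicate 1 of day 0.375 or without replicate 2 of day 0.25, and 8 were without day 0.916. GUN4, CRD1 and AT1G74470 overlap a neighbouring gene.

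Of 10 photoprotection genes 1 passed (10% called, against 18.6% of all loci). It was ZEP, an enzyme of the xanthophyll cycle, with 918 and 915 CPM at day 0.375, against 617 and 697 CPM at day 0.25. This call was lost when any 1 of the 4 libraries was left out. PSBS, a sensor of excess light, had 2258 and 1907 CPM at day 0.375, against 1806 and 1752 CPM at day 0.25 and did not pass (adjusted p = 0.375). Of the 6 plastid sigma factors, which direct the chloroplast polymerase, SIG4 and SIG5 rose (33.3% called, against 18.6% of all loci). SIG5 had 301 and 283 CPM at day 0.375, against 162 and 177 CPM at day 0.25, with its highest mean at day 0.375, and SIG4 had 29.1 and 21.7 CPM at day 0.375, against 15.699 and 13.6 CPM at day 0.25. Both were higher in each replicate of day 0.375, with log2 changes of 0.79 ± 0.20 and 0.79 ± 0.18 (adjusted p = 0.0208 and 0.012). The SIG5 call was lost when any 1 of the 4 libraries was left out and the SIG4 call without replicate 1 of day 0.375 or replicate 2 of day 0.25, with adjusted p up to 0.114 and 0.112. SIG1, the most abundant, had 212 and 188 CPM at day 0.375, against 166 and 175 CPM at day 0.25 and did not pass (adjusted p = 0.113). In part of the alternative settings SIG1 passed. None of the 18 Calvin cycle genes passed edgeR's test in either direction or DESeq2's, their log2 changes running from -0.48 to 0.23. RBCS1A, a small subunit of Rubisco, had 16772 and 13681 CPM at day 0.375, against 15410.0 and 13173 CPM at day 0.25, with replicates of the times that overlapped.

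Genes of starch breakdown were lower at day 0.375 in 7 of 22 cases and higher in 1 (36.4% called, against 18.6% of all loci). The median log2 change was -0.22. BAM9, a catalytically inactive member of the beta-amylase family, had 33.8 and 35.6 CPM at day 0.375, against 314 and 227 CPM at day 0.25. BAM3, the main beta-amylase of leaf starch breakdown at night, had 4742 and 4976 CPM at day 0.375, against 8070.0 and 9394 CPM at day 0.25. Both were lower in each replicate of day 0.375, by 7.79-fold and 1.80-fold, with log2 changes of -2.96 ± 0.22 and -0.85 ± 0.16 (adjusted p = 1.49e-05 and 0.00396). DPE2, which uses the maltose that leaves the chloroplast, had 177 and 197 CPM at day 0.375, against 284 and 331 CPM at day 0.25. The phosphorylases PHS1 and PHS2 fell, with log2 changes of -0.76 and -0.75, as did PWD and DPE1, with -0.54 and -0.60. BAM7, a beta-amylase-like transcription factor, rose by 0.67. GWD1 (-0.16), SEX4 (-0.15) and MEX1 (-0.27), which start starch breakdown or export maltose, did not pass. Of 16 genes of starch synthesis 1 was lower (6.25% called, below the 18.6% of all loci). This gene, SS3, had 40.8 and 41.6 CPM at day 0.375, against 53.5 and 54.0 CPM at day 0.25. APS1, the most abundant of the list, had 562 and 538 CPM at day 0.375, against 536 and 550.2 CPM at day 0.25. The SS3 call was lost under total-count scaling (adjusted p = 0.0595), on lane 1 alone (0.0758), and without replicate 1 of day 0.375 or replicate 2 of day 0.25 (up to 0.0611). BAM9, BAM3, PHS1, PHS2 and SS3 overlap a neighbouring gene.

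Genes known to rise when sugar is short were lower in 7 of 17 cases and higher in 1. Of the list 47.1% was called, against 18.6% of all loci, and the median log2 change was -0.99. TPS8, a class II trehalose phosphate synthase-like protein, had 5.21 and 8.80 CPM at day 0.375, against 28.6 and 28.4 CPM at day 0.25. DRM1 had 3.27 and 3.46 CPM at day 0.375, against 8.81 and 12.7 CPM at day 0.25, and DRM2 had 13.0 and 8.65 CPM at day 0.375, against 31.9 and 36.2 CPM at day 0.25. All 3 were at their lowest of the 6 times at day 0.375, with log2 changes of -2.02 ± 0.25, -1.67 ± 0.30 and -1.66 ± 0.27 (adjusted p = 0.000434, 0.00317 and 0.00206). DIN11 was called at low counts, with 0.431 and 0.880 CPM at day 0.375, against 4.35 and 3.66 CPM at day 0.25 and an adjusted p of 0.0493. The DIN11 call was lost when any library of these times was left out. KMD4, TPS10 and DIN4 fell too, with log2 changes of -0.99, -0.56 and -0.44. The member that rose, DIN9, is the mannose phosphate isomerase gene PMI2, described with ascorbate. The lower members numbered 11 without day 0.916, and 4 without replicate 1 or without replicate 2 of day 0.25.

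Of 11 genes of sucrose synthesis and export 5 were lower and none higher (45.45% called, against 18.6% of all loci). The median log2 change was -0.42. SWEET12, a sucrose exporter of the phloem parenchyma, had 41.5 and 34.7 CPM at day 0.375, against 80.0 and 92.4 CPM at day 0.25. SWEET11, which acts beside it, had 115 and 100.5 CPM at day 0.375, against 158 and 166 CPM at day 0.25. Of the sucrose phosphate synthases, SPS4F had 319.5 and 284 CPM at day 0.375, against 447 and 450.0 CPM at day 0.25, and SPS1F had 333 and 363 CPM at day 0.375, against 471 and 544 CPM at day 0.25. Each was lower in both replicates of day 0.375, from 1.46-fold for SPS1F to 2.26-fold for SWEET12. UGP2, which makes UDP-glucose, also fell, with a log2 change of -0.47. The count was 3 without replicate 1 of day 0.375 and 3 without replicate 2 of day 0.25.

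Flavonoid genes were lower in 5 of 21 cases and higher in none (23.8% called, near the 18.6% of all loci), with a median log2 change of -0.75. With DESeq2 2 members were higher and 6 lower. F3'H, which adds a hydroxyl group to the flavonoid ring, had 46.2 and 41.1 CPM at day 0.375, against 126 and 147 CPM at day 0.25. ANS, a late enzyme of anthocyanin synthesis, had 104 and 114 CPM at day 0.375, against 262 and 318 CPM at day 0.25, and FLS1, the flavonol synthase, had 91.6 and 78.3 CPM at day 0.375, against 152 and 149.5 CPM at day 0.25. MYB111, an activator of flavonol genes, had 7.11 and 6.82 CPM at day 0.375, against 14.2 and 12.8 CPM at day 0.25. These 4 were lower in both replicates, with log2 changes of -1.64 ± 0.43, -1.41 ± 0.39, -0.83 ± 0.11 and -0.96 ± 0.14. The F3'H and ANS calls were lost when any library of these times was left out. CHI, the chalcone isomerase, fell with a log2 change of -0.75. CHS, the entry enzyme, had 1378 and 1252 CPM at day 0.375, against 1719 and 1746 CPM at day 0.25 and did not pass (adjusted p = 0.351). In part of the alternative settings CHS passed. The count of lower members was 11 without day 0.916 and 2 when any 1 of the 4 libraries was left out, and ANS has a copy 96.0% identical over 321 bases.

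Genes of nitrate and sulfate assimilation were lower in 5 of 22 cases, of which 21 were tested, and higher in none. This share (23.8% called) is near the 18.6% of all loci, and the median log2 change was -0.24. NIA2, the main nitrate reductase, had 285 and 326 CPM at day 0.375, against 893 and 705 CPM at day 0.25. APR3, which reduces activated sulfate, had 153 and 149 CPM at day 0.375, against 385 and 364 CPM at day 0.25, and its relative APR2 had 513 and 474 CPM at day 0.375, against 1152 and 1058 CPM at day 0.25. SDI1, a gene of the sulfur deficiency response, had 14.5 and 22.7 CPM at day 0.375, against 41.4 and 48.8 CPM at day 0.25. All 4 were lower in both replicates of day 0.375, by 2.24-fold to 2.61-fold. The NIA2 call was lost when any library of these times was left out. GSH2, the glutathione synthetase, fell with a log2 change of -0.42. GLN2, the most abundant member, had 1355 and 1231 CPM at day 0.375, against 1499 and 1429 CPM at day 0.25 and did not pass (adjusted p = 0.613). The count was 3 without replicate 1 of day 0.375 and 3 without replicate 2 of day 0.25, and APR2 and APR3 overlap a neighbouring gene.

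Ascorbate, the most abundant water-soluble antioxidant of leaves, is made from mannose and galactose intermediates, and GDP-L-galactose phosphorylase is its controlling step. Of 24 genes of its synthesis and recycling 23 were tested, 3 were higher and 1 lower (17.39% called, near the 18.6% of all loci), with a median log2 change of -0.05, or 0.02 under total-count scaling. VTC2, the main gene of the controlling step, had 1352 and 1286 CPM at day 0.375, against 1612 and 1629 CPM at day 0.25. Both replicates lay below day 0.25, where VTC2 had its highest mean of the 6 times. The difference did not pass the test at -0.30 ± 0.12 (adjusted p = 0.109), though it passed in part of the alternative settings. VTC5, its minor homologue, had 32.1 and 31.1 CPM at day 0.375, against 25.03 and 20.1 CPM at day 0.25 and rose by 0.48 ± 0.11 (adjusted p = 0.0135). A stretch of 119 bases is 91.6% identical between them. The VTC5 call was lost without replicate 1 or replicate 2 of day 0.375 and without replicate 2 of day 0.25 (adjusted p up to 0.125).

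DHAR2, which regenerates ascorbate from its oxidised form, had 26.4 and 27.5 CPM at day 0.375, against 14.97 and 17.5 CPM at day 0.25. PMI2, a mannose phosphate isomerase, had 7.25 and 5.53 CPM at day 0.375, against 3.13 and 3.04 CPM at day 0.25. Both were higher in each replicate of day 0.375, by 0.73 ± 0.12 and 1.05 ± 0.28 on the log2 scale (adjusted p = 0.00164 and 0.024). The PMI2 call was lost without replicate 1 of day 0.375 or either replicate of day 0.25 (adjusted p up to 0.160). AT4G33670, annotated as an NAD(P)-linked oxidoreductase and listed as the L-galactose dehydrogenase step, had 20.7 and 17.0 CPM at day 0.375, against 26.4 and 23.65 CPM at day 0.25. Its adjusted p was 0.0482, just inside the threshold, and the gene did not pass with the counts halved, under total-count scaling, on either lane alone, with the needed groups alone, with a replicate block, or without replicate 2 of day 0.375 or either replicate of day 0.25. GME, the epimerase before VTC2, had 383 and 338 CPM at day 0.375, against 406 and 418 CPM at day 0.25, and GLDH, the last enzyme, had 39.0 and 38.5 CPM at day 0.375, against 32.3 and 34.4 CPM at day 0.25. Neither passed, with adjusted p = 0.232 and 0.244.

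**Figure D4:**
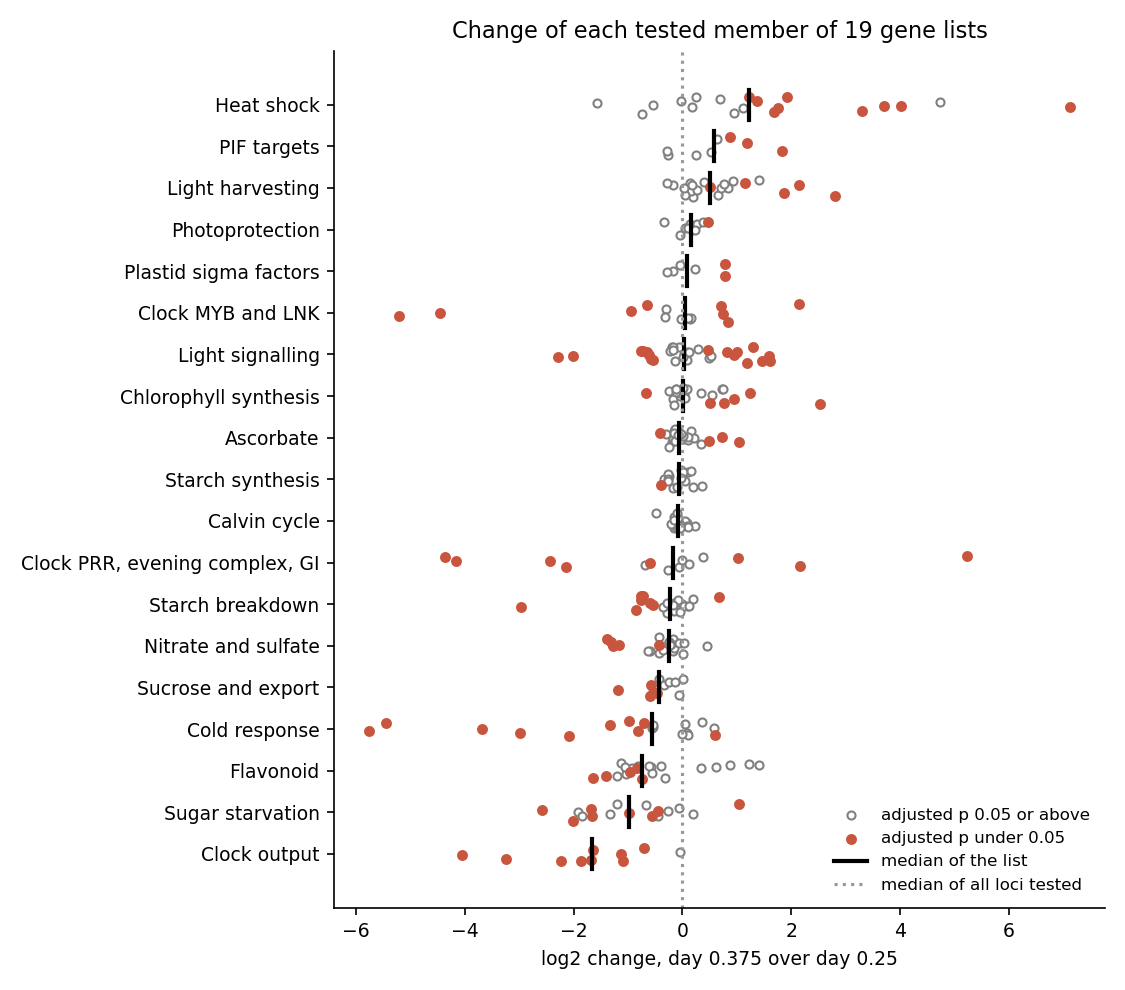
Log2 change of day 0.375 over day 0.25 for each tested member of 19 gene lists, filled where the adjusted p was under 0.05, with the list median (bar) and the median of all loci tested (dotted line, -0.01). Heat shock genes lie furthest right (median 1.23) and clock output genes furthest left (median -1.66), while the Calvin cycle genes form a narrow column near 0 (median -0.09).

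The loci that changed were often at an extreme of the day at one end of the step. Of the 1767 loci higher at day 0.375, 838 (47.4%) had their highest mean of the 6 times at day 0.375 and 892 (50.5%) their lowest at day 0.25. Of the 2124 lower loci, 883 (41.6%) had their lowest mean at day 0.375 and 1020 (48.0%) their highest at day 0.25. Over all tested loci the highest mean fell at day 0.375 for 19.3% and at day 0.25 for 19.5%. The calls used these same samples, which favours such places, so these shares are a description. Over all tested loci, 6344 (30.3%) had both replicates of day 0.375 above both of day 0.25 and 6824 (32.6%) had both below.

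The change after day 0.25 was also set against the change before it, from day 0.083 to day 0.25, in a single contrast that uses the day 0.25 libraries in both terms. By the labels the earlier step is the longer, and the changes were not scaled by time. The contrast passed for 1727 of 20958 loci (8.24%), being positive for 619 (2.95%) and negative for 1108 (5.29%). The number was 196 without replicate 2 of day 0.25 and 898 to 1189 without another library of these 2 times. Under total-count scaling 934 were positive and 552 negative, with the median over all loci at 0.19 in place of -0.02. Among loci past the threshold with a mean log2 CPM of at least 3 whose day 0.375 and day 0.25 replicates did not overlap, the largest positive values were those of bHLH093, AT3G53830 and AT1G51400. Of the scarcer heat and cold genes MBF1C had 4.01 ± 0.76 (adjusted p = 0.0102) and CBF1 had -5.83 ± 0.71 (adjusted p = 0.00132). HSFA2 did not pass this contrast, at 6.36 ± 2.21 (adjusted p = 0.110). Nor did the small heat shock genes AT1G07400 and HSP17.6 (adjusted p = 0.0523 and 0.157). The bHLH093 gene averaged 5.46 CPM at day 0.083, 2.02 CPM at day 0.25 and 11.2 CPM at day 0.375. AT3G53830 averaged 1.86, 2.18 and 28.8 CPM at these times.

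Under the same limits the largest negative values belonged to CBF2, to CML38, a calmodulin-like protein, and to CBL1, a calcium sensor. CBF2 averaged 47.5 CPM at day 0.083, 55.2 CPM at day 0.25 and 1.01 CPM at day 0.375. CML38 had 4.31 and 4.81 CPM at day 0.375, against 21.4 and 53.5 CPM at day 0.25, with 8.3 and 6.27 CPM at day 0.083. CBL1 had 14.1 and 14.0 CPM at day 0.375, against 50.4 and 127 CPM at day 0.25, with 24.5 and 19.7 CPM at day 0.083. In both genes replicate 2 of day 0.25 stood well above replicate 1, and the CML38 contrast did not pass without that library, at -3.79 (adjusted p = 0.0614). The AT1G51400 contrast did not pass without that library (adjusted p = 0.241), without replicate 1 of day 0.25 (0.0670) or without replicate 1 of day 0.375 (0.0625). CBL1 overlaps a gene on the same strand and is 85.4% identical over 472 bases to AT5G47100, so its counts are uncertain. AT1G51400 overlaps genes on the opposite strand. VTC2 passed the contrast of changes as well, at -0.80 ± 0.20 (adjusted p = 0.0358). It had averaged 1147 CPM at day 0.083, 1621 CPM at day 0.25 and 1319 CPM at day 0.375. Among the clock genes the contrast was 3.07 ± 0.23 for GI and -2.06 ± 0.30 for CCA1 (adjusted p = 0.000104 and 0.00307). For VTC2, GI and CCA1, as for MBF1C, CBF1 and HSFA2 above, the contrast is given from the fit with all libraries alone.

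**Figure D5:**
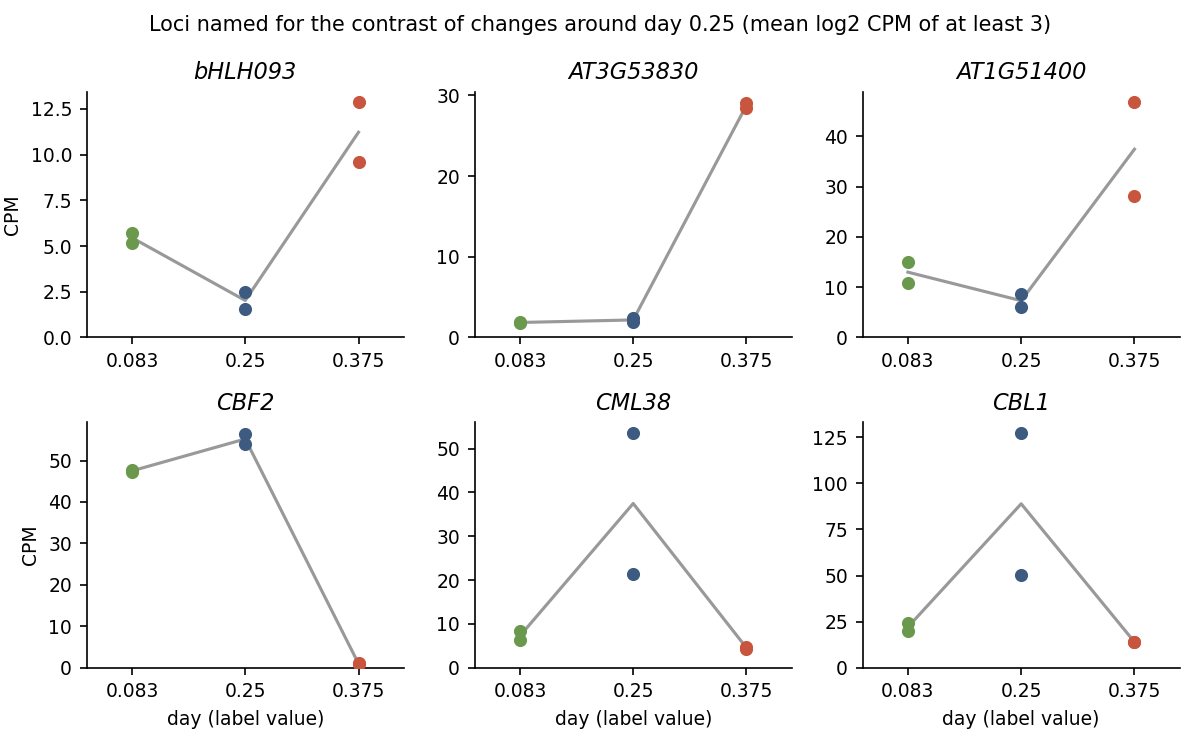
CPM of the loci named for the contrast of changes, the 3 most positive (top) and 3 most negative (bottom) with a mean log2 CPM of at least 3, at days 0.083, 0.25 and 0.375, 1 point per replicate and a line through the means. CBF2 is nearly level over the first 2 times and falls to 0.826 and 1.19 CPM at day 0.375, while the 2 replicates of day 0.25 lie apart in CML38 (21.4 and 53.5 CPM) and CBL1 (50.4 and 127 CPM).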

How the data were processed

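The deposited table holds raw read counts per transcript and lane for the 6 diurnal times and for a light-level group not used here, per the file headers. Bowtie2 and TAIR10 are named in the submitters' processing notes, while the counting tool and the use of strand are not given in the sources used here. All 28 columns of the table were assigned to a sample, lanes were summed to replicates, and 41671 transcripts were summed to 33602 loci, of which 32835 matched the RefSeq annotation of assembly TAIR10.1. Of the counts from 1 to 10, 70.2% are even, for which no source used here gives a reason, and halved counts were one of the alternatives. Totals were 20418095 to 35859304 counts in the 12 diurnal replicates.

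Differences were tested in edgeR 4.0.16 under R 4.3.3 (TMM scaling, filterByExpr, quasi-likelihood F tests), with 1 term per group and the 6 times sharing the spread. Benjamini-Hochberg adjustment ran over the 20958 loci tested, at a threshold of 0.05, and each SE was taken from the log2 change and its F statistic. The second test was the contrast of the change after day 0.25 minus the change before it, in the same fit. It did not scale the changes by the unequal lengths of the steps. On simulated counts of the same 20958 loci with 200 changed ones, day 0.375 against day 0.25 recovered 42% of the 1.5-fold, 92% of the 2-fold and 100% of the 3-fold and 4-fold changes, and 7.22% of its calls were false. The changed loci were drawn from the more abundant loci alone, so these rates do not extend to scarce loci. They were also far fewer than the loci called in the data. Alternatives were DESeq2 1.42.0, RLE size factors, total-count scaling, other filters, fewer groups, a replicate block, single lanes, halved counts and each replicate left out in turn.

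The members, the gene lists and the tests were chosen with earlier results of these data known. Named loci are the 10 largest rises and falls among called loci whose mean log2 CPM was 3 or more and whose replicates did not overlap between the times, VTC2 and VTC5, the tested clock genes of the first 2 lists, up to 4 members past the threshold and the most abundant member of each other list, and 3 loci each way for the second test. Other list members given with values were chosen after their values were seen. Of the 110 named loci, 19 had a stretch of at least 100 bases at least 85% identical to another gene in a BLAST 2.17.0 search, and 41 overlapped another gene. Replicates are random pools, so p-values measure the spread between these pools, and a replicate number pairs nothing across times.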

Additional observations from a re-analysis of the deposited data

Results flagged for a closer look

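The change from day 0.25 to day 0.375 differed from the change from day 0.083 to day 0.25 for 1727 of the 20958 loci tested, by edgeR's test of the difference itself. The loci named for it, which all had a mean log2 CPM of at least 3, had differences of 3.88 for bHLH093, 3.49 for AT3G53830 and 3.17 for AT1G51400, and of -5.97 for CBF2, -5.40 for CML38 and -4.67 for CBL1, all on the log2 scale. The earlier step is the longer by its labels, and the changes were not scaled by time. Without replicate 2 of day 0.25, the library in which CML38 and CBL1 were highest, the count was 196. In that setting the adjusted p was 0.0614 for CML38 and 0.241 for AT1G51400, which also failed without replicate 1 of day 0.25 (0.0670) or of day 0.375 (0.0625). The part of that library in these values was not tested beyond leaving it out.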

How the results depend on the processing

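With 1 of the 4 libraries left out, the loci called between day 0.375 and day 0.25 numbered 1761 to 2472 in place of 3891, and the loci called in the contrast of changes 196 to 1189 in place of 1727. The contrast of changes also gave 2602 loci when fitted on the groups it needs alone, 2647 without day 0.916, 1066 on lane 1 and 1138 on lane 2. The other settings kept both counts within 1.5 times. The replicate number as a block gave 3339 loci, of which 3312 were shared with the fit without it, and 1299 in the contrast of changes. Same-numbered replicates of the times had deviations correlated at 0.167, within a range of -0.658 to 0.316 over all pairs of times, and the labels describe random pools, so the samples share only a number.

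Of 84 named loci past the threshold, 60 passed it in each of the 4 fits without a library, none changed sign in any of the 15 settings, and 74 passed in every setting that keeps all 4 libraries and in which they were tested. Sign changes occurred among genes that had not passed. LUX was at 0.34 on lane 1 and 0.0091 under total-count scaling, AG at 0.29 on lane 1, and AT5G52660 at 0.015 on lane 1 and 0.056 under total-count scaling. ZTL was at 0.0071 with at least 10 counts required, 0.013 with the needed groups alone, 0.044 on lane 1, 0.071 under total-count scaling and 0.0062 with halved counts. With a library left out, the values spanned 0 for RBCS1A (-0.062 to 0.23), LUX (-0.31 to 0.12), AG (-0.38 to 0.22), CHE (-0.17 to 0.36), APS1 (-0.014 to 0.048), AT5G52660 (-0.20 to 0.14) and ZTL (-0.034 to 0.022). The cause of these changes was not tested. With 2 replicates a time, small changes are beyond what the counts can resolve, and a lone replicate was assumed to vary like the other groups.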
